A study of Homo sapiens with 18 samples.

Results

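The 76 genes described here carry the symbols of mitochondrial ribosomal proteins, and all but MRPS36 were assigned to a subunit of the mitochondrial ribosome. They are all the symbols in the deposited expression tables that consist of MRPL or MRPS, a number and at most 1 letter A, B or C, and they make up 76 of the 23686 symbols listed. The list holds 47 MRPL and 29 MRPS symbols. By the place of the protein in the assembled particle 49 belong to the large subunit (MRPS30 and MRPS18A among them, despite their symbols), 26 to the small subunit, and MRPS36 was assigned to neither, since its protein has been described as a part of the 2-oxoglutarate dehydrogenase complex. MRPS36 is kept in all counts over the 76 genes.

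The RNA came from OCI-Ly1 and TMD8, established human lines of diffuse large B-cell lymphoma, exposed to JIB-04, known as an inhibitor of Jumonji histone demethylases. Each line had 3 groups of 3 libraries: 0.01% DMSO as the vehicle, 150 nM JIB-04 and 500 nM JIB-04. The culture medium was IMDM for OCI-Ly1 and RPMI 1640 for TMD8, each with 10% fetal bovine serum, so line and medium cannot be told apart, and the treatment time is not given in the sources used here. The 3 libraries of a group are technical replicates by their description, and nothing says that they came from separate cultures, so all p-values measure only the spread between libraries.

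Mitochondria carry their own ribosome, which translates the few proteins encoded in mitochondrial DNA, all of them subunits of the respiratory chain and ATP synthase. Its ribosomal RNAs come from mitochondrial DNA, but every ribosomal protein is encoded in the nucleus, made in the cytosol and imported. Some of the proteins have counterparts in bacterial ribosomes (45 of the genes here) and others are specific to mitochondria (30 genes), and their genes are often grouped with respiratory chain genes as targets of nuclear respiratory factors, ETS-family factors such as GABP, and MYC.

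Promoter sequence was taken from RefSeq windows (GRCh38.p14, 250 bases before to 50 after each start), which were found for 67 of the 76 genes. Windows were searched on both strands for the ETS motif CCGGAAG, the YY1 core GATGGCG and the NRF1 core GCATGCG. A gene counted once per motif however many matches it had, overlapping ones included. The ETS motif stood in 29 of the 67 genes (43.3%) and in 12.2% of the 27305 genes of the whole table. The YY1 core stood in 16 (23.9%, against 5.11% of the table) and the NRF1 core in 7 (10.4%, against 4.74%). At least 1 of the motifs was found in 43 genes (64.2%, against 19.5%). Similar sets of genes were also above the table. Of 70 cytosolic ribosomal protein genes 34.3% had the ETS motif, 25.7% the YY1 core, 7.14% the NRF1 core and 57.1% at least 1. Of 50 respiratory chain genes the shares were 30%, 18%, 20% and 52%. The windows below are the 120 bases just upstream of the start, 5′ to 3′ on the gene's strand, with any motif match in capitals. They are shown for the genes whose values the comparisons below turn on: MRPL12 and MRPL47, the deepest falls in TMD8, MRPS25, which fell in OCI-Ly1 and was not called in TMD8, MRPL9, MRPL48 and MRPS22, which moved in opposite directions in the lines, MRPL51, which had the highest TPM in both lines, and MRPL20, which came next in OCI-Ly1.

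MRPL12: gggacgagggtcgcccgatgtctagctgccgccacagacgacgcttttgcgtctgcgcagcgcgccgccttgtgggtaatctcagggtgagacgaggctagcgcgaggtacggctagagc
MRPL47: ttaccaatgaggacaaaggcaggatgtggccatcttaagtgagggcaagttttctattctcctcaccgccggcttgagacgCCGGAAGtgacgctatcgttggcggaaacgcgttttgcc
MRPS25: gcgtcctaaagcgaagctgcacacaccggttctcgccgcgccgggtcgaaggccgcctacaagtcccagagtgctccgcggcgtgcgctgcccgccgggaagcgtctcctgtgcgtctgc
MRPL9: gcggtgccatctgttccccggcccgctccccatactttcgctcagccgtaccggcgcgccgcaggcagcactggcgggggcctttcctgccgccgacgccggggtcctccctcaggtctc
MRPL48: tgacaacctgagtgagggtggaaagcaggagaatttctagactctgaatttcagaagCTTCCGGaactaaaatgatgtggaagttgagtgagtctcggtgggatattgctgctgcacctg
MRPS22: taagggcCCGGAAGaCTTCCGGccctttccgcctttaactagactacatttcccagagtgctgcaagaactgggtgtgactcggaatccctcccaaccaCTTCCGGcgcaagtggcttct
MRPL51: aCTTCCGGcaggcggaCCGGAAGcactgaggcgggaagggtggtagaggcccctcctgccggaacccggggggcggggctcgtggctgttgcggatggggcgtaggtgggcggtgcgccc
MRPL20: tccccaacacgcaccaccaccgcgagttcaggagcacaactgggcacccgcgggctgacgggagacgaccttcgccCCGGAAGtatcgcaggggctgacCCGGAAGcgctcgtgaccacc

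The MRPL12 window lies at chr17:81703247-81703366, plus strand, and that of MRPL47, 1 of 2, at chr3:179604639-179604758, minus strand. The MRPS25 window lies at chr3:15065316-15065435, minus strand, and that of MRPL9 at chr1:151763497-151763616, minus strand. The MRPL48 window lies at chr11:73787754-73787873, plus strand, and that of MRPS22, 1 of 3 listed for this gene, at chr3:139343900-139344019, plus strand. The MRPL51 window lies at chr12:6493263-6493382, minus strand, and that of MRPL20 at chr1:1407294-1407413, minus strand. MRPL47 held 1 ETS match, MRPL48 held 1 on the opposite strand, the MRPL51 and MRPL20 windows held 2 each, and the MRPS22 window held 3, whereas no match to these letters was found in the windows of MRPL12, MRPS25 and MRPL9. A match is a description of the letters and not a binding site. The changes at 500 nM are given for genes with and without the ETS letters as a description. In TMD8 the median log2 fold change was -0.50 over the 29 with a match and -0.61 over the 38 without, and 28 of 29 and 35 of 38 were called lower (30.7% of all genes tested). In OCI-Ly1 both medians were -0.19.

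Depth ranged from 9550092 estimated counts (TMD8, 500 nM, replicate 3) to 32651115 (OCI-Ly1, 500 nM, replicate 1). The lowest count of any of the 76 genes in any library was 84 in TMD8 and 272 in OCI-Ly1, so every one passed the low-count filter in both lines. All 7 B-cell markers examined were above 1 count in 1000000 in every group, the summed germinal-centre markers were at 638 to 665 in OCI-Ly1 with DMSO against 105 to 112 in TMD8, the summed activated-B-cell markers at 220 to 248 against 3913 to 4206, and no erythroid marker averaged above 1 with DMSO. Between DMSO and 500 nM the summed T-cell markers (4 genes) went from a range of 18.8 to 22.5 down to one of 8.40 to 9.42 CPM in OCI-Ly1, and the 4 epithelial and fibroblast markers from 18.6 to 19.3 up to 45.9 to 48.5 in TMD8. The activated-B-cell markers stood at 427 to 462 in OCI-Ly1 and 2550.5 to 2569.9 in TMD8 at 500 nM. Summed B-cell markers went from 2768 to 2939 down to 2326 to 2369 in TMD8 and from 1390 to 1448 down to 1245 to 1291 in OCI-Ly1, and germinal-centre markers to 530 to 549 in OCI-Ly1 and 86.4 to 89.9 in TMD8. Single markers went both ways (edgeR adjusted p under 0.05 at 500 nM). In OCI-Ly1 3 of 7 B-cell markers were called higher and 3 lower, and in TMD8 1 and 5. Of germinal-centre markers 1 was higher and 2 lower of 4 in OCI-Ly1, and 2 and 1 of 3 tested in TMD8. The epithelial and fibroblast rise in TMD8 held 1 called marker of 3 tested. Of T-cell markers 3 of 4 were called lower in OCI-Ly1, and the 1 tested in TMD8 was called higher. Summed NK markers went from 18.2 to 29.3 down to 11.6 to 13.3 CPM in OCI-Ly1 and overlapped in TMD8. Of 3 erythroid markers 1 averaged above 1 CPM at 500 nM in TMD8. The part of these shifts in the results was not tested. Levels below are CPM, counts scaled to a total of 1000000 per library with TMM normalisation, which compare libraries. TPM, transcript abundances scaled to the same total, are corrected for transcript length and were used mainly to compare genes within a line. Across groups they served only for ratios of summed levels and for alternative runs. The reason is that symbols of short noncoding RNAs took 24.1% to 33.8% of all TPM in OCI-Ly1 and 56.7% to 76.4% in TMD8, more at 500 nM than with DMSO in both lines. TPM sum to a constant, so a larger share for these RNAs leaves less for all others. Both scales are relative within a library, so less RNA of these genes per cell, more of other RNA and a shift in the kinds of cells present cannot be told apart.

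With DMSO the genes spanned a wide range of levels. In OCI-Ly1 the mean TPM ran from 14.1 to 411 with a median of 75.1, and in TMD8 from 6.63 to 88.7 with a median of 28.0. MRPL51, a large-subunit protein specific to mitochondria, had the highest level in both lines, at 411 ± 27.3 TPM (SD, n = 3) in OCI-Ly1 and 88.7 ± 3.94 in TMD8. Next in OCI-Ly1 stood MRPL20, a protein with a bacterial counterpart in the large subunit (236 ± 15.6), and MRPS21 of the small subunit (210.4 ± 4.99), which lay below MRPL20 by more than the SD of either. In TMD8 the next were MRPL12 (77.8 ± 5.89) and MRPS21 (74.6 ± 6.17), within their spread. The lowest in OCI-Ly1 were MRPL1, of the L1 stalk, at 14.1 ± 1.83, MRPL19 at 16.4 ± 0.924 and MRPL22, which lines the exit tunnel, at 16.96 ± 1.26. In TMD8 the lowest were MRPL22 at 6.63 ± 1.06, MRPS14 at 8.65 ± 1.22 and MRPL1 at 9.49 ± 0.56. Neighbours in this order lay within the sum of their SDs in both lines. The 3 highest genes held 12.8% of the summed TPM of all 76 in OCI-Ly1 and 10.1% in TMD8.

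In TMD8 nearly the whole set fell with JIB-04, and it fell further with the higher dose. At 150 nM 64 of the 76 genes were called lower and 0 higher (edgeR quasi-likelihood test, Benjamini-Hochberg adjusted p under 0.05), where 25% of all 15363 genes tested were called lower and 19.2% higher, and the median log2 fold change was -0.32. At 500 nM 72 were lower and 0 higher, against 30.7% and 29.9% of all genes, and the median was -0.59 with quartiles of -0.78 and -0.39. All genes tested had a median of 0.04 in that comparison. No gene of the set was higher at an unadjusted p under 0.05 at either dose, and DESeq2 called 54 and 70 lower and 0 higher. Between 150 and 500 nM, a comparison that shares its libraries with the other 2, 53 were lower and 0 higher (background 15% and 13.7%), with 0 higher and 58 lower at an unadjusted p under 0.05, and 50 lower and 0 higher by DESeq2. In 52 of the 76 genes every 500 nM library was below every 150 nM library and every 150 nM library below every DMSO library, an order that 15.8% of all genes tested showed, and the reverse order was found in 0 of the 76 (11.9% of all genes). Summed over the set, the 3 DMSO libraries of TMD8 stood at 3845, 3718 and 3720 CPM, the 150 nM libraries at 3173, 3024 and 2896, and the 500 nM libraries at 2516, 2537 and 2523. The groups did not overlap.

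**Figure D1:**
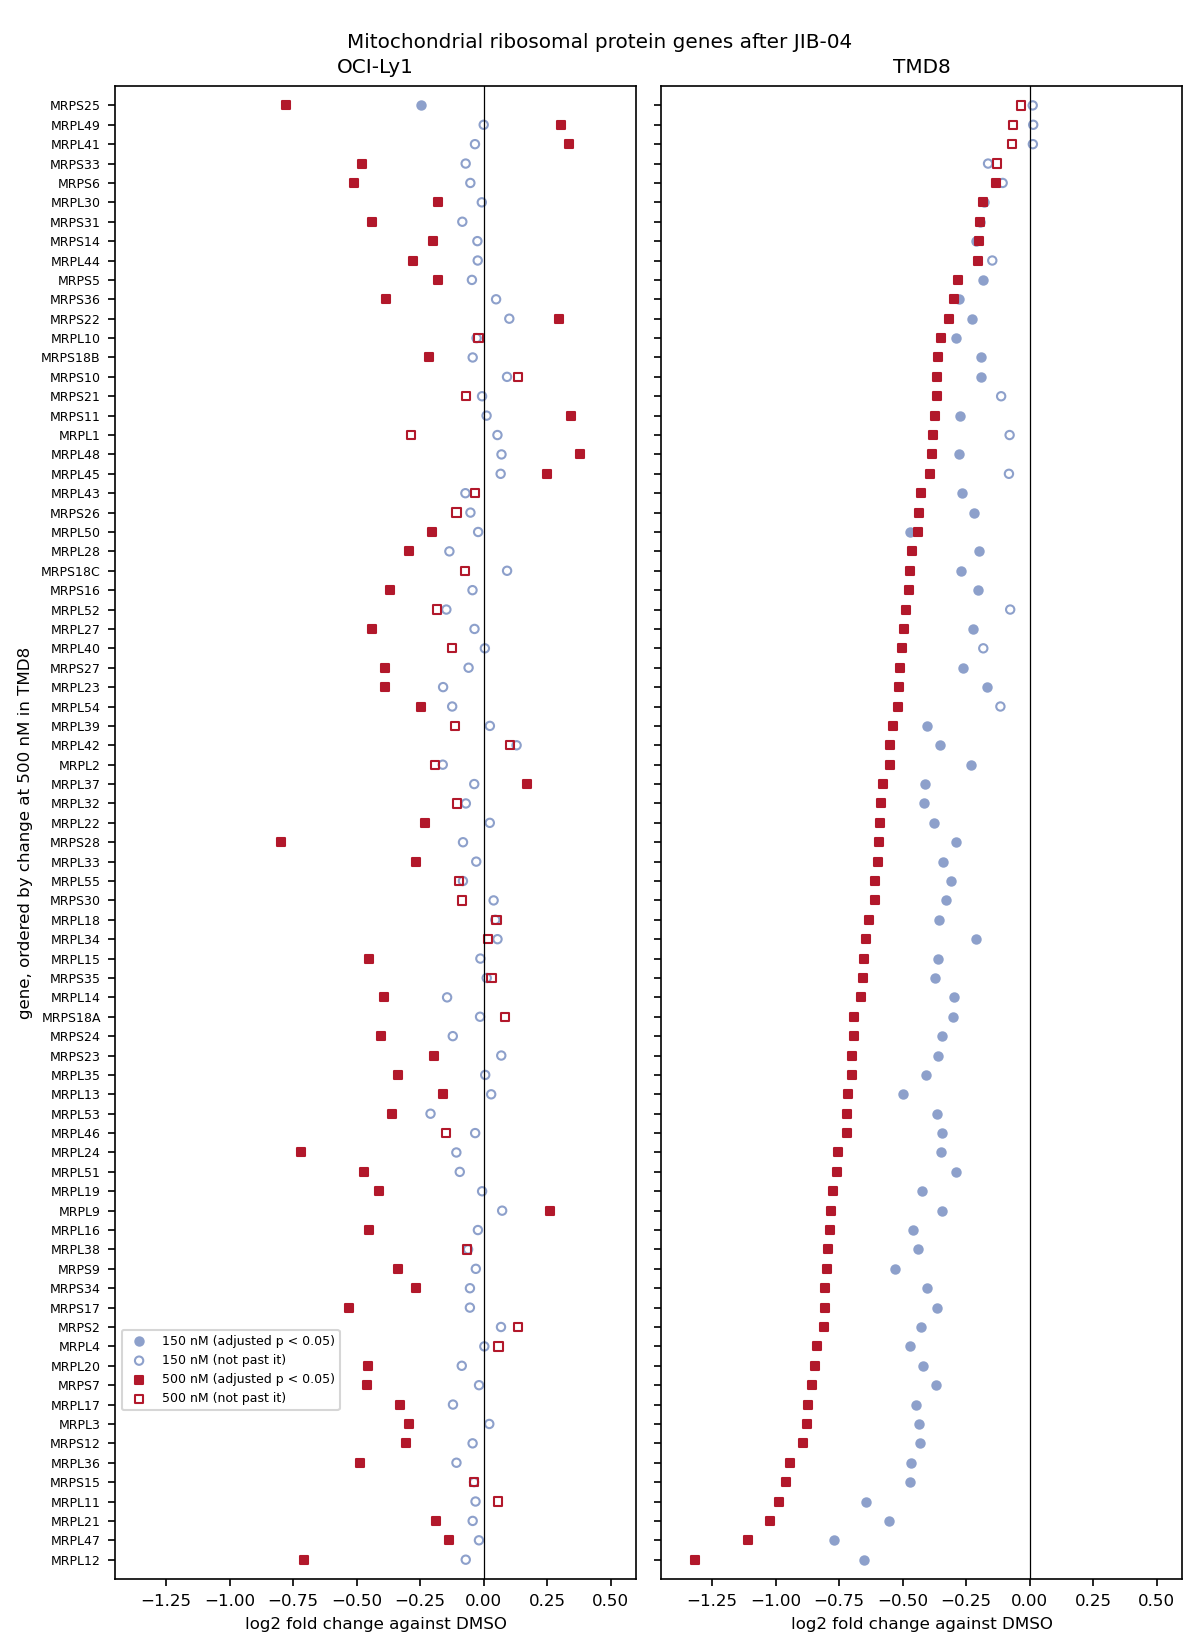
Log2 fold change of each of the 76 genes at 150 nM (circles) and 500 nM (squares) against DMSO in OCI-Ly1 (left) and TMD8 (right), with genes ordered by the change at 500 nM in TMD8 and filled symbols for an adjusted p under 0.05. In TMD8 all 500 nM values lie below 0 and most 150 nM values lie between them and 0, whereas in OCI-Ly1 the 150 nM values cluster at 0 and the 500 nM values lie on both sides.

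The deepest fall in TMD8 was that of MRPL12, the stalk protein of the large subunit that contacts translation factors. Its DMSO libraries were at 95.6, 96.5 and 96.6 CPM, its 150 nM libraries at 66.0, 61.1 and 57.2 and its 500 nM libraries at 38.4, 40.1 and 37.0. The 3 groups were far apart, and the mean at 500 nM was 59.9% lower than with DMSO (a log2 change of -1.32, SE 0.06, edgeR adjusted p = 4.47e-12). MRPL47, a large-subunit protein near the mouth of the exit tunnel, went from 50.2, 41.0 and 42.2 CPM with DMSO to 27.2, 26.5 and 24.5 at 150 nM and 20.5, 20.05 and 21.4 at 500 nM. The larger step came at the lower dose (a log2 change of -0.77 at 150 nM, SE 0.08, and -1.11 at 500 nM, SE 0.08, edgeR adjusted p = 5.48e-07 and 2.62e-09). MRPL21, which has a bacterial counterpart, stood at 47.4, 37.4 and 38.8 CPM under vehicle, 30.5, 28.7 and 25.3 under 150 nM and 19.5, 20.5 and 20.9 under 500 nM (a log2 change of -1.02, SE 0.09, edgeR adjusted p = 4.01e-08). MRPL11, at the base of the same stalk as MRPL12, stood at 40.9, 35.0 and 36.1 under vehicle, 24.2, 25.1 and 22.3 under 150 nM and 17.9, 18.9 and 19.8 under 500 nM (a log2 change of -0.99, SE 0.08, edgeR adjusted p = 7.49e-09). Each of these large-subunit genes had no overlap between any 2 of its groups. They were picked as the largest called falls, and 15.8% of all genes tested showed that falling order.

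In the small subunit the deepest fall in TMD8 was that of MRPS15, a protein with a bacterial counterpart that binds the ribosomal RNA. It was at 35.2, 33.5 and 33.4 CPM under vehicle, 25.3, 24.0 and 24.3 under 150 nM and 15.8, 17.2 and 19.9 under 500 nM (a log2 change of -0.96, SE 0.08, edgeR adjusted p = 9.24e-09). MRPS17, also with a bacterial counterpart, was lower in level, at 17.1, 13.8 and 13.7 under vehicle against 8.90, 7.86 and 8.59 under 500 nM (a log2 change of -0.81, SE 0.12, edgeR adjusted p = 9.45e-06). MRPL51, the gene of highest TPM, went from 63.9, 66.4 and 68.5 CPM with DMSO to 35.9, 43.0 and 39.0 at 500 nM (40.8% lower by group means, edgeR adjusted p = 8.31e-08). MRPS21, the next by TPM after MRPL12, went from 49.4, 48.4 and 46.3 to 38.4, 33.8 and 39.8 (22.4% lower, edgeR adjusted p = 0.00014). MRPL20, among the highest in OCI-Ly1, went from 57.6, 54.0 and 54.3 to 30.3, 29.6 and 32.7 in TMD8 (44.3% lower, edgeR adjusted p = 3.05e-09). The genes of lowest TPM, which are not those of lowest CPM throughout, were called too: MRPL22 was at 30.8, 29.4 and 26.3 CPM under vehicle against 19.2, 18.7 and 19.4 under 500 nM (edgeR adjusted p = 2.1e-06), and MRPL1 at 15.6, 17.7 and 16.3 against 12.3, 13.3 and 12.5 (edgeR adjusted p = 0.00093). MRPS14, also among the lowest by TPM, was called lower as well, with a log2 change of -0.20. Only 4 genes were not called at 500 nM in TMD8: MRPS25, MRPL49, MRPL41 and MRPS33, with log2 fold changes of -0.03, -0.06, -0.07 and -0.13. MRPS33 was named after its value was seen.

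**Figure D2:**
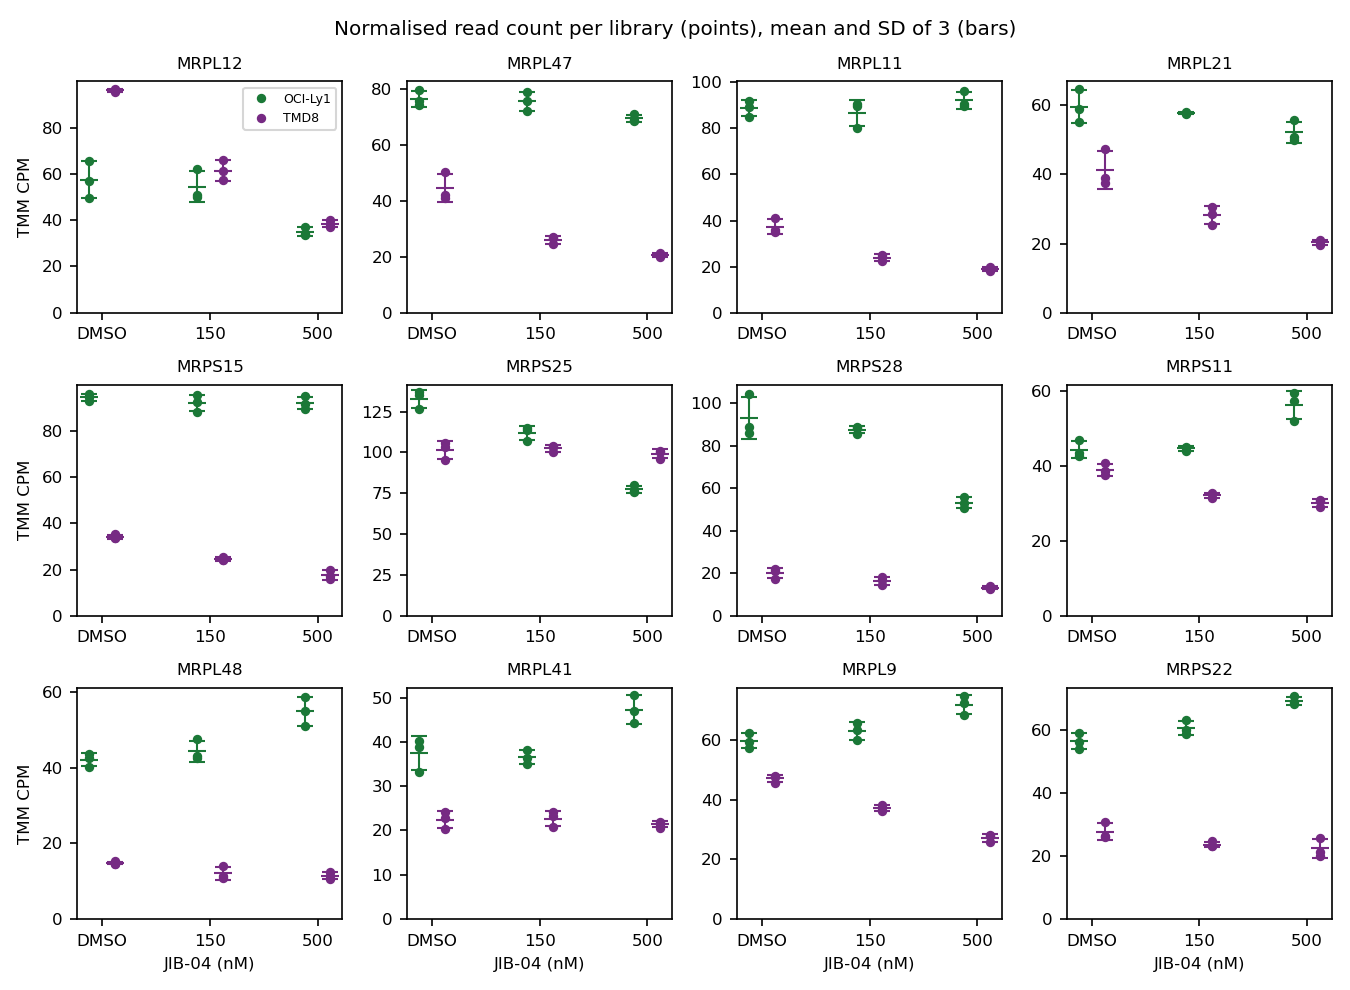
Normalised read count (TMM CPM, axis from 0) of 12 of the genes in each library by JIB-04 dose, with the mean and SD of 3 libraries, in OCI-Ly1 (green) and TMD8 (purple). MRPL12 falls at each dose in TMD8 and at 500 nM in OCI-Ly1, MRPL11 and MRPS15 fall in TMD8 and were not called in OCI-Ly1, MRPS25 is lower with dose in OCI-Ly1 only, and MRPS11, MRPL48, MRPL9 and MRPS22 are higher at 500 nM in OCI-Ly1 and lower in TMD8.

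OCI-Ly1 showed almost no change at 150 nM. MRPS25, a small-subunit protein specific to mitochondria, was the 1 gene called (0 higher, 1 lower of 76), against 0.141% of 15638 genes called lower and 0.748% higher, and the median of the set was -0.03. At an unadjusted p under 0.05 5 were lower and 0 higher, and DESeq2 likewise called 1 lower and 0 higher. MRPS25 was at 137, 135 and 127 CPM under vehicle, 114, 115 and 107 under 150 nM and 80.1, 76.2 and 75.8 under 500 nM. Every library of a higher dose was below every library of a lower one. Such an order was found in 5 of the 76 genes in OCI-Ly1 (background 3.63%), the others being MRPL16, MRPL17, MRPL54 and MRPS18B (the first 3 named after their values were seen), and the rising order in 0 (background 4.43%). The MRPS25 call at 150 nM (a log2 change of -0.24, SE 0.06, edgeR adjusted p = 0.044) was lost without DMSO replicate 1 or 2 or 150 nM replicate 2 or 3, where the adjusted p was 0.17, 0.21, 0.12 and 0.21, and it was also lost with only the 2 groups compared (0.16).

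At 500 nM OCI-Ly1 divided the set. 43 genes were lower and 8 higher, against 25.9% and 27.7% of all genes tested, 25 were not called, and the median log2 fold change was -0.20 with quartiles of -0.39 and -0.04 (all genes 0.00). Between 150 and 500 nM 37 were lower and 8 higher (background 21.1% and 25.1%), and the number higher dropped to 4 without 150 nM replicate 2 or without 500 nM replicate 1, and to 5 without 500 nM replicate 2. The split depended on the scale: at 500 nM against DMSO it was 32 lower and 12 higher with scaling by library size alone, 24 and 16 on the log2(TPM + 1) scale, and 54 and 6 on that scale centred on each library. The median of the set was -0.11, -0.06 and -0.28 in these, and the median of all genes was 0.08, 0.10 and -0.12, so the set stood below all genes in each. Summed CPM was 5492, 5674 and 5478 in the DMSO libraries, 5426, 5370 and 5490 in those of 150 nM and 4877, 4823 and 4717 in those of 500 nM, where the 500 nM libraries lay below all others, a log2 ratio of -0.21 to DMSO. The same ratio of summed TPM was -0.09 as deposited and 0.04 rescaled without short noncoding RNAs, so the direction of the sum in OCI-Ly1 was not the same on all scales. In TMD8 the corresponding log2 ratios were -0.57, -0.99 and -0.38.

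Among the genes that fell in OCI-Ly1, MRPS28, the small-subunit counterpart of bacterial S1, and MRPS25 fell most. MRPS28 was at 85.9, 104 and 88.9 CPM under vehicle, 88.5, 89.0 and 85.5 under 150 nM and 56.1, 50.8 and 52.9 under 500 nM (42.6% lower, a log2 change of -0.80, SE 0.07, edgeR adjusted p = 3.35e-08). The fall came between the doses, with DMSO and 150 nM overlapping. For MRPS25 the change at 500 nM was 41.7% (a log2 change of -0.78, SE 0.06, edgeR adjusted p = 2.88e-09). MRPL24, a large-subunit protein with a bacterial counterpart, was at 40.3, 47.3 and 41.6 under vehicle against 25.9, 25.2 and 26.9 under 500 nM (a log2 change of -0.72, SE 0.07, edgeR adjusted p = 2.58e-07). MRPL12 was at 57.0, 65.6 and 49.7 under vehicle against 34.2, 37.2 and 33.7 under 500 nM (a log2 change of -0.71, SE 0.10, edgeR adjusted p = 6.92e-06). MRPS17 went from 43.8, 49.1 and 51.7 to 33.9, 34.0 and 32.1 (a log2 change of -0.53, SE 0.08, edgeR adjusted p = 1.41e-05). In all 5 the 500 nM libraries were below every DMSO library. They were picked as the largest called falls, and the share of all genes so separated was not computed.

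The genes that rose in OCI-Ly1 rose by less. MRPL48, a large-subunit protein specific to mitochondria, was at 42.5, 40.2 and 43.7 CPM under vehicle, 43.0, 42.5 and 47.5 under 150 nM and 58.5, 51.0 and 55.1 under 500 nM (30.3% higher, a log2 change of 0.38, SE 0.07, edgeR adjusted p = 0.000176). MRPS11, of the small-subunit platform, was at 46.7, 43.2 and 42.6 under vehicle against 51.9, 59.3 and 57.3 under 500 nM (a log2 change of 0.34, SE 0.07, edgeR adjusted p = 0.000299). MRPL41, specific to mitochondria, was at 40.3, 38.9 and 33.1 under vehicle against 46.9, 50.6 and 44.2 under 500 nM (a log2 change of 0.34, SE 0.08, edgeR adjusted p = 0.00156). These 3 genes had 500 nM libraries above all others. They were picked as the largest called rises, and the share of all genes so placed was not computed. MRPL49 was at 81.4, 81.0 and 76.5 under vehicle against 99.3, 97.7 and 98.3 under 500 nM, a rise of 23.6% (a log2 change of 0.31, SE 0.06, edgeR adjusted p = 0.000175). MRPS22, a small-subunit protein specific to mitochondria, was at 54.0, 56.4 and 59.2 under vehicle against 70.8, 69.0 and 68.3 under 500 nM, a rise of 22.7% (a log2 change of 0.30, SE 0.06, edgeR adjusted p = 0.0004). The other genes called higher were MRPL9, MRPL45 and MRPL37, with log2 fold changes of 0.26, 0.25 and 0.17. That of MRPL37 (edgeR adjusted p = 0.023) was lost without DMSO replicate 1 or 3 or 500 nM replicate 1 or 2, where the adjusted p was 0.052, 0.10, 0.10 and 0.10, and those of MRPL37 and MRPL45 were lost on the centred log2(TPM + 1) scale (0.27 and 0.062).

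The response differed between the lines when the difference itself was tested over all 18 libraries. At 150 nM the log2 fold change was higher in OCI-Ly1 than in TMD8 for 40 of the 76 genes and lower for 1, MRPS25 (edgeR adjusted p under 0.05, background 15% and 8.33% of 16604 genes). At 500 nM it was higher for 55 and lower for 2 (background 28.2% and 18.1%), with a median difference of 0.41 (all genes 0.05). At 500 nM 41 genes were called lower in both lines, 25 lower in TMD8 and not called in OCI-Ly1, 2 lower in OCI-Ly1 and not called in TMD8, 6 higher in OCI-Ly1 and lower in TMD8, and 2 higher in OCI-Ly1 and not called in TMD8. The log2 fold change was the lower one in TMD8 for 69 genes. Shares of all genes in these joint classes were not computed, so the counts have no background beside them. Taken singly, OCI-Ly1 had 25.9% of all genes lower and 27.7% higher, and TMD8 had 30.7% and 29.9%. Across the 76 genes the fold changes of the lines were only weakly related (Pearson r 0.19, Spearman rho 0.17), a description across genes, which share libraries and are not independent replicates. The same correlation over all genes was not computed.

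**Figure D3:**
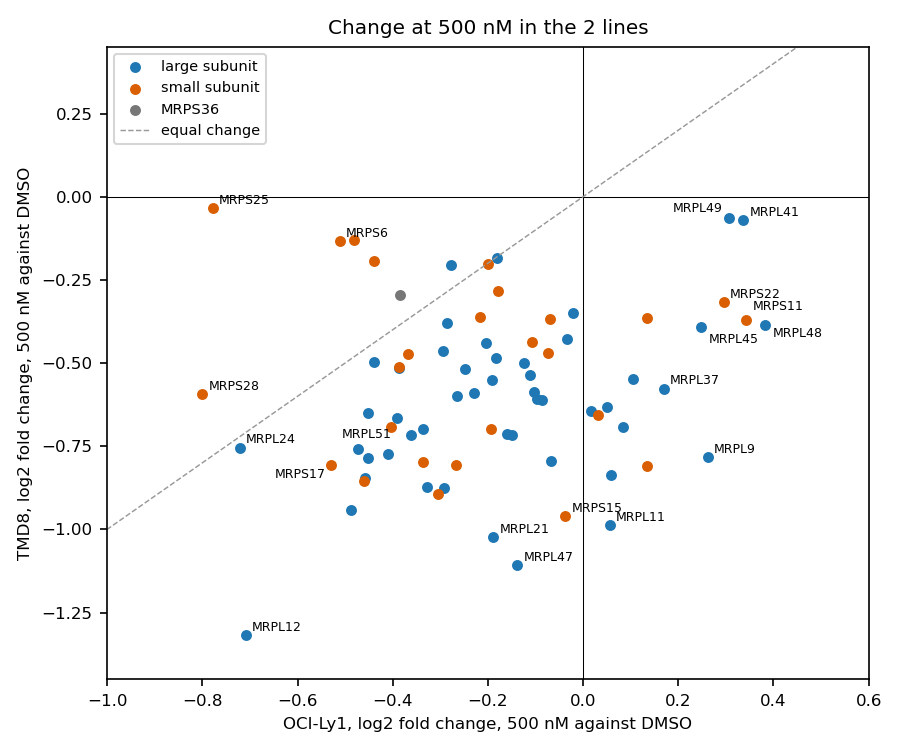
Log2 fold change at 500 nM against DMSO of each gene in OCI-Ly1 (horizontal axis) and TMD8 (vertical axis), coloured by ribosomal subunit, with a dashed line where both changes are equal. Of the 76 points 69 lie below the dashed line, MRPL12 is low in both lines, MRPS25 and MRPS6 lie above the line, and the genes called higher in OCI-Ly1 lie to the right at values of 0 or below in TMD8.

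The differences were largest for MRPL9 and MRPL11, which have bacterial counterparts and sit in the large subunit. MRPL9 was at 62.4, 57.5 and 59.5 CPM under vehicle against 72.4, 74.7 and 68.3 under 500 nM in OCI-Ly1, and 48.0, 45.6 and 47.8 against 28.3, 27.8 and 25.8 in TMD8. It rose in one line and fell in the other, without overlap in either, and the difference of the log2 fold changes came to 1.07 (SE 0.09, edgeR adjusted p = 2.93e-10). MRPL11 was at 89.2, 91.9 and 85.0 under vehicle against 89.5, 96.5 and 90.6 under 500 nM in OCI-Ly1, where the groups overlapped and no change was called (adjusted p = 0.452), and its difference was 1.07 (SE 0.10, edgeR adjusted p = 5.76e-09). MRPL47 was at 75.8, 79.6 and 74.1 under vehicle against 70.9, 68.6 and 68.9 under 500 nM in OCI-Ly1, and its difference was 1.0 (SE 0.10, edgeR adjusted p = 1.24e-08). The small fall of MRPL47 within OCI-Ly1 (adjusted p = 0.0489) was lost without DMSO replicate 1 or 2 or any 1 of the 500 nM libraries. It was 0.00 on the log2(TPM + 1) scale, where the median of all genes was 0.10. MRPS15 was at 94.5, 95.7 and 92.8 under vehicle against 94.7, 89.5 and 91.4 under 500 nM in OCI-Ly1, with overlap, against the clear fall in TMD8 (a difference of 0.95, SE 0.09, edgeR adjusted p = 5.91e-09).

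The 6 genes called in opposite directions at 500 nM were MRPL9, MRPL37, MRPL45, MRPL48, MRPS11 and MRPS22. In TMD8 MRPL37, specific to mitochondria, went from 127, 120.1 and 125 CPM to 84.0, 81.1 and 83.9, and in OCI-Ly1 from 131, 136 and 124 to 151, 151 and 137. MRPL45, which sits at the exit tunnel and anchors the ribosome to the inner membrane, went from 41.2, 34.8 and 38.7 to 27.0, 29.9 and 30.9 in TMD8 and from 32.2, 33.4 and 37.6 to 42.5, 41.0 and 39.2 in OCI-Ly1. The differences between lines were 0.78 and 0.67 (edgeR adjusted p = 2.31e-08 and 9.6e-06). For MRPL48, MRPS11 and MRPS22 they were 0.80, 0.74 and 0.64 (edgeR adjusted p = 9.63e-06, 3.41e-07 and 2.59e-05), and their TMD8 falls were modest, at -0.38, -0.37 and -0.32.

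The 2 genes with the opposite difference, a deeper fall in OCI-Ly1, were both of the small subunit. MRPS25 was at 95.4, 103 and 106 CPM under vehicle, 104, 103 and 100.3 under 150 nM and 101, 96.2 and 101 under 500 nM in TMD8, with all groups overlapping, the response differing by -0.71 between the lines (SE 0.08, edgeR adjusted p = 2.31e-08). MRPS6 was at 86.0, 84.3 and 80.03 under vehicle against 77.8, 75.6 and 74.7 under 500 nM in TMD8, and 70.6, 76.1 and 70.8 against 50.4, 53.1 and 48.9 in OCI-Ly1. Its difference was -0.35 (SE 0.08, edgeR adjusted p = 0.000623), but 0.13 on the log2(TPM + 1) scale, where it was not called (limma adjusted p = 0.32). That scale leans up for all genes, whose median difference was 0.38 on it and 0.05 in the main run. MRPS6 stood below the median of all genes on both.

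Both subunits held genes called lower in each line, and the ratio of their summed levels shifted in opposite directions. Of all genes tested at 500 nM, 30.7% were lower and 29.9% higher in TMD8, and 25.9% and 27.7% in OCI-Ly1. At 500 nM in TMD8 47 of 49 large-subunit genes and 24 of 26 small-subunit genes were lower, with medians of -0.61 and -0.47. In OCI-Ly1 25 of 49 large-subunit genes were lower and 6 higher, and 17 of 26 small-subunit genes lower and 2 higher (MRPS11 and MRPS22), with medians of -0.18 and -0.24. The ratio of summed large-subunit to small-subunit TPM, which does not depend on the library's total, was 1.65, 1.62 and 1.64 in the DMSO libraries of OCI-Ly1 and 1.74, 1.74 and 1.73 in its 500 nM libraries. In TMD8 the DMSO libraries had ratios of 1.84, 1.81 and 1.84, those of 150 nM 1.77, 1.73 and 1.71, and those of 500 nM 1.64, 1.70 and 1.64. The 500 nM libraries lay above the DMSO libraries in OCI-Ly1 and below them in TMD8, and no test was made of these sums. MRPS36, outside the ribosome, was lower at 500 nM in both lines, at -0.39 in OCI-Ly1 and -0.30 in TMD8.

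**Figure D4:**
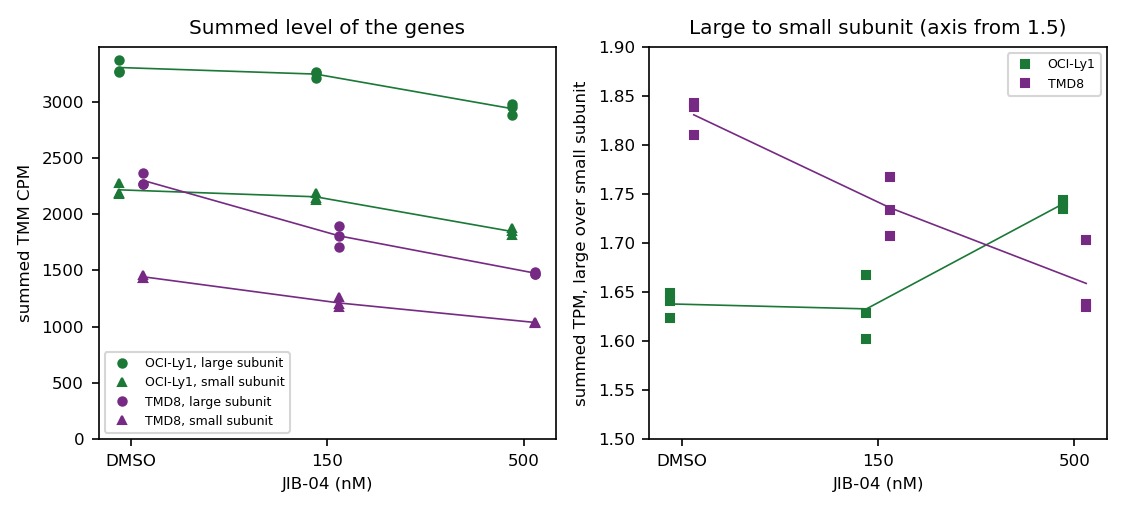
Left, summed TMM CPM (axis from 0) of the large-subunit and small-subunit genes in each library by JIB-04 dose. Right, the ratio of their summed TPM, on an axis from 1.5; lines join group means. Summed CPM is lower at both doses in TMD8 and at 500 nM in OCI-Ly1 (where the rescaled TPM of all 76 genes gave a log2 ratio of 0.04), and the ratio is higher at 500 nM in OCI-Ly1 (1.73 to 1.74) and lower in TMD8 (1.64 to 1.70) than with DMSO.

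Genes with a bacterial counterpart had somewhat lower medians than genes specific to mitochondria in both lines. In TMD8 all 45 with a counterpart were called lower at 500 nM (median -0.67), as were 26 of the 30 specific to mitochondria (median -0.51). In OCI-Ly1 30 of the 45 were lower and 2 higher (MRPL9 and MRPS11, median -0.29), against 12 lower and 6 higher of the 30 (median -0.12). Of all genes tested 30.7% were lower in TMD8, and 25.9% were lower and 27.7% higher in OCI-Ly1. The difference between these classes was not tested. The 3 paralogs of bacterial S18 sit at different places, MRPS18A in the large subunit and MRPS18B and MRPS18C in the small subunit. Despite its relation to S18, MRPS18A was counted above among the genes specific to mitochondria. In TMD8 their log2 fold changes at 500 nM were -0.69, -0.36 and -0.47 (edgeR adjusted p = 6.99e-08, 1.49e-05 and 0.000183). In OCI-Ly1 MRPS18B fell, from 121, 116 and 117 CPM with DMSO to 104, 100.5 and 99.6 at 500 nM (edgeR adjusted p = 0.00168), and MRPS18A (0.08, SE 0.06) and MRPS18C (-0.07, SE 0.08) were not called.

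Proteins of the mitochondrial ribosome that carry other symbols were listed separately. All 7 were lower in TMD8 at 500 nM (median -0.47) and 3 of 7 in OCI-Ly1 (median -0.21), against 30.7% and 25.9% of all genes. ICT1, a peptidyl-tRNA hydrolase built into the large subunit, was at 26.4, 23.5 and 24.4 CPM under vehicle against 15.3, 16.2 and 15.1 under 500 nM in TMD8 (edgeR adjusted p = 3.48e-06), and its fold change of 0.16 in OCI-Ly1 was not called (difference 0.86, edgeR adjusted p = 1.76e-06). CHCHD1 and GADD45GIP1 fell in TMD8 (-0.49 and -0.48). DAP3, the GTP-binding protein of the small subunit, PTCD3 and MRP63 fell in both lines (respectively -0.39, -0.21 and -0.32 for OCI-Ly1, with -0.25, -0.24 and -0.47 for TMD8).

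Factors that assemble the ribosome had medians nearer to 0. Of 24 assembly genes 16 were lower and 1 higher in TMD8 (median -0.26), where 30.7% and 29.9% of all genes were. In OCI-Ly1 9 were lower and 4 higher (37.5% and 16.7%, median -0.05), against 25.9% and 27.7% of all genes. MALSU1, which holds the large subunit in an immature state, fell in TMD8 (-0.77), as did the rRNA methyltransferase RNMTL1 (-0.66) and the helicase DHX30 (-0.66). NGRN, needed for the large-subunit ribosomal RNA, was at 87.7, 88.7 and 85.9 CPM under vehicle against 137, 128 and 119.9 under 500 nM in OCI-Ly1 (0.56, edgeR adjusted p = 7.04e-07) and fell by 0.35 on the log2 scale in TMD8, whereas FASTKD2 and RPUSD4 fell in OCI-Ly1 (-0.46 and -0.43). The other assembly genes called higher were ERAL1, METTL17 and NSUN4 in OCI-Ly1 (0.21, 0.29 and 0.30) and YBEY in TMD8 (0.22), named after their values were seen. Of 17 translation factors and their partners 14 were lower and 1 higher in TMD8 (median -0.39). In OCI-Ly1 9 were lower and 1 higher (median -0.14), and the shares of all genes are those given for the assembly genes. SLIRP, which binds mitochondrial messenger RNA with LRPPRC, had the deepest fall of that list, from 45.4, 40.1 and 38.5 CPM with DMSO to 16.02, 17.4 and 16.1 at 500 nM in TMD8 (a log2 change of -1.32, SE 0.09) and from 86.0, 89.1 and 83.6 to 56.4, 55.6 and 56.0 in OCI-Ly1 (-0.62, SE 0.06). The elongation factor GFM1 fell in TMD8 (-0.65) and was not called in OCI-Ly1 (-0.05). C12orf65, a release-factor-like rescue protein, rose in TMD8 (0.72), and PDF, the peptide deformylase, in OCI-Ly1 (0.36). PDF was named after its value was seen. Beside SLIRP the largest called changes of this list in OCI-Ly1 were falls, of MTFMT and OXA1L.

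Of 13 genes of mitochondrial transcription and RNA processing, all 13 were lower in TMD8 (median -0.51) and 7 in OCI-Ly1 (median -0.19). Of all genes 30.7% and 25.9% were. The RNase Z ELAC2 fell in both lines (-0.83 in TMD8 and -0.52 in OCI-Ly1), as did TRMT10C of mitochondrial RNase P (-0.72 and -0.75) and the polynucleotide phosphorylase PNPT1 (-0.68 and -0.35). Among regulators, all 9 tested were lower in TMD8 (median -0.58), against 3 lower (PPARGC1B, PPRC1 and NRF1) and 1 higher (MYC) in OCI-Ly1. The OCI-Ly1 counts are 33.3% and 11.1% of the regulators, beside 25.9% and 27.7% of all genes. NRF1 was named after its value was seen. MYC was at 367, 339.6 and 337 CPM under vehicle, 242, 221 and 210.0 under 150 nM and 151, 155 and 159.8 under 500 nM in TMD8. In OCI-Ly1 its vehicle libraries were at 332, 313 and 302, those of 150 nM at 300.1, 293 and 303 and those of 500 nM at 399, 408 and 389.6. It fell in TMD8 (-1.16) and rose in OCI-Ly1 (0.34), and the difference between lines was 1.53 (SE 0.08, edgeR adjusted p = 5.79e-14). The PGC-1-related coactivator PPRC1 fell in both lines (-0.94 and -0.42), and TFAM, which packages and transcribes mitochondrial DNA, fell in TMD8 (-0.67) and was not called in OCI-Ly1 (-0.11). The part of these regulators in the change of the ribosomal protein genes was not tested. Mitochondrial stress genes went both ways, with 5 higher and 4 lower of 10 in TMD8 (all genes 29.9% and 30.7%). In OCI-Ly1 7 were higher and 2 lower (all genes 27.7% and 25.9%). The chaperonin genes HSPD1 and HSPE1 fell in TMD8 (-0.97 and -1.15) and in OCI-Ly1 (-0.49 and -0.85), and CLPP fell in TMD8 (-0.63). The Hsp70 gene HSPA9 fell in TMD8 (-0.61) and rose in OCI-Ly1 (0.25), with a difference of 0.89 (edgeR adjusted p = 1.65e-09). HSPD1, HSPE1, CLPP and HSPA9 were named after their values were seen. GDF15, a secreted stress marker, was almost without counts under vehicle (0 to 2 per library) and rose to 2.09, 1.78 and 2.24 CPM in OCI-Ly1 and 11.1, 11.5 and 10.9 in TMD8 at 500 nM (edgeR adjusted p = 3.15e-07 and 2.67e-11). DDIT3, an effector of the integrated stress response, rose in both (2.94 and 2.96), as did TRIB3 (1.73 and 2.56).

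The same counts were made for other large complexes, beside 30.7% of all genes lower in TMD8 and 25.9% in OCI-Ly1 at 500 nM. The nuclear genes of the respiratory chain were lower in 70 of 75 cases in TMD8 (median -0.54) and in 53 of 75 in OCI-Ly1 (median -0.29). SDHB, of complex II, fell in TMD8 (-0.84) and was not called in OCI-Ly1 (-0.08), and the ATP synthase gene ATP5G3 fell in both (-0.82 and -0.72). Cytosolic ribosomal protein genes were lower in 42 of 87 cases in TMD8 (median -0.12) and in 69 of 87 in OCI-Ly1 (median -0.24). RPL3 of the cytosolic large subunit had the deepest fall of these in OCI-Ly1 (-0.90, against -0.14 in TMD8), and RPS26 in TMD8 (-0.82). The median of the mitochondrial ribosomal protein genes thus lay below that of the cytosolic ones in TMD8 (-0.59 against -0.12) and slightly above it in OCI-Ly1 (-0.20 against -0.24), and these medians were not compared by a test.

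**Figure D5:**
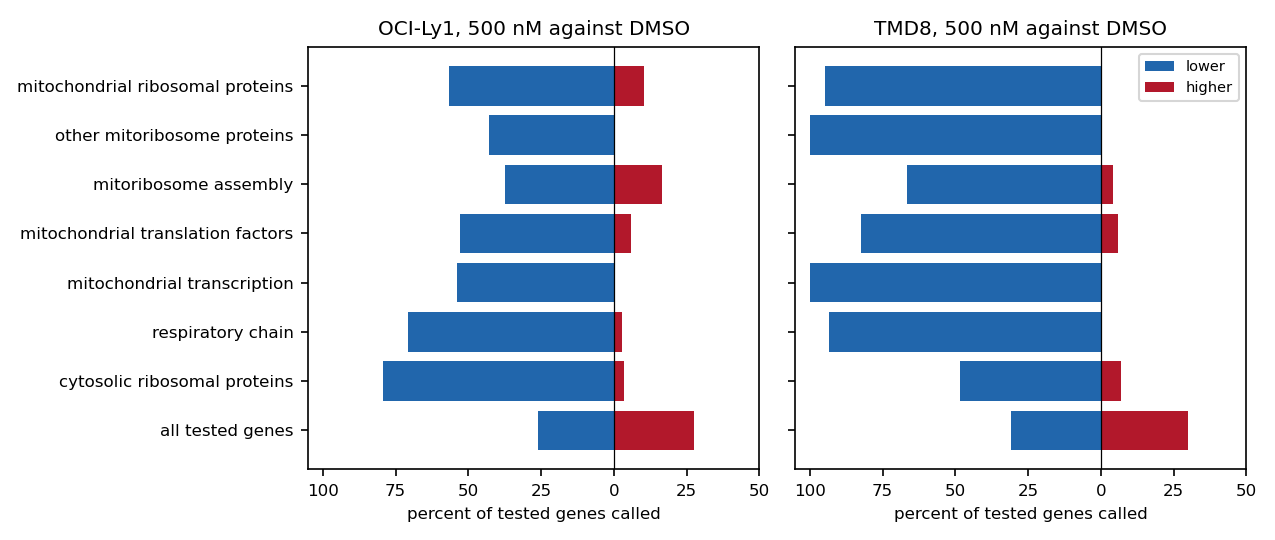
Percent of the tested genes of each list called lower (blue, to the left) and higher (red, to the right) at 500 nM against DMSO in OCI-Ly1 (left) and TMD8 (right), at an edgeR adjusted p under 0.05. The bar of mitochondrial ribosomal proteins reaches 94.7% lower in TMD8 and 56.6% in OCI-Ly1, beside 30.7% and 25.9% of all tested genes.

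Counts of some genes are uncertain. In the GENCODE 29 annotation 33 of the 76 genes have at least 1 pseudogene copy, 70 in all, and the exons of 34 overlap another coding gene. The strand setting of the counting is not given in the sources used here, so reads of MRPL47 and ACTL6A, of MRPL11 and PELI3, of MRPS25 and NR2C2, of MRPL9 and OAZ3 and of MRPS22 and COPB2, which lie on opposite strands, may not be fully told apart, nor those of MRPS6 and SLC5A3 or of MRPS17 and NIPSNAP2, which share a strand. MRPL12 overlaps AC139530.2, annotated on its own strand, and MRPL21 and MRPL24 overlap none and have no copy.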

How the data were processed

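Bulk RNA-seq of ribosome-depleted total RNA was measured in 18 libraries. The authors deposited estimated counts and TPM per gene, made with kallisto 0.46.0 against hg19, with R 4.3.1 and DESeq2 1.40.2 also named, per the submitters' processing notes. Here, estimated counts were rounded to whole numbers, filtered with filterByExpr and scaled by TMM, and edgeR 4.0.16 (R 4.3.3) quasi-likelihood tests were fitted per line over its 9 libraries, or over 18 libraries for differences between lines, with Benjamini-Hochberg adjustment over all genes tested and a threshold of 0.05. The SE is the absolute log2 fold change over the root of F. The steps were tested on simulated data. Depth per library was 9550092 to 32651115 estimated counts. 

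The members and lists were chosen with earlier results of these data known. Named genes are the 5 largest called rises and falls per line at 500 nM, 2 each at 150 nM, the 3 largest differences between lines each way, all called in opposite directions, the 3 highest and lowest by TPM with DMSO, the MRPS18 paralogs, and at most 3 per other list and line. Alternatives were library size scaling, DESeq2 1.42.0, no filter, only the 2 groups, limma 3.58.1 on log2(TPM + 1), log2(TPM + 0.1) and centred values, a replicate block, and leaving out each library. No test was made of summed levels, although one had been planned. Replicate pairs differed by more than sampling noise (chi-square per degree of freedom 1.65 to 11.5). Mitochondrially encoded RNAs were not analysed here.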

Additional observations from a re-analysis of the deposited data

Results flagged for a closer look

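The response to JIB-04 differed between OCI-Ly1 and TMD8 by the test of the difference itself, over all 18 libraries. At 150 nM the log2 fold change was higher in OCI-Ly1 for 40 of the 76 genes and lower for 1, against 15% and 8.33% of all genes tested. At 500 nM it was higher for 55 and lower for 2, against 28.2% and 18.1%. Among named genes at 500 nM the difference, OCI-Ly1 minus TMD8, was 1.07 for MRPL11, 1.07 for MRPL9 and 1.0 for MRPL47. It was 0.80 for MRPL48, 0.78 for MRPL37, 0.74 for MRPS11, 0.67 for MRPL45 and 0.64 for MRPS22. MRPS25 (-0.71) and MRPS6 (-0.35) had the opposite sign. Line and culture medium cannot be told apart in these values.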

How the results depend on the processing

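In TMD8 the number of genes lower at 500 nM was 66 to 76 and the number higher 0 in every alternative run, including the replicate block (72 lower). Leaving out single libraries gave 69 to 72. The log2(TPM + 1) scale leans low there for all genes. On it 7581 of 15363 were lower and 1751 higher (median -0.22), against 4723 and 4601 in the main run. Counts of the set on log2(TPM) scales that are not centred are therefore no separate support. Centred, 5357 of all genes were lower and 5014 higher. In OCI-Ly1 at 500 nM leaving out single libraries gave 37 to 44 lower and 7 to 8 higher, and both log2(TPM) scales, with 1 or 0.1 added, gave 24 lower and 16 higher. For 500 against 150 nM these scales gave 22 lower, the centred scale gave 4 higher, and leaving out single libraries gave 4 to 8 higher. The single gene lower at 150 nM (MRPS25) became 0 with library size scaling, only the 2 groups, both log2(TPM) scales and the centred scale, and 0 to 1 without single libraries. The set's median there, -0.03, turned to 0.0048 and 0.0049 on the log2(TPM) scales. The 1 gene with a lower response in OCI-Ly1 at 150 nM became 0 on those scales and 0 to 1 without single libraries, and the 2 such genes at 500 nM became 1 on those scales and 4 with library size scaling. MRPL47 in OCI-Ly1 at 500 nM turned to 0.00036 and 0.00037 on those scales, and the MRPS6 difference to 0.13 and 0.13. Those scales also leaned up for all genes, with medians of 0.10 and 0.13 in OCI-Ly1 at 500 nM. For the difference between lines the medians of all genes were 0.38 and 0.50 at 500 nM and 0.11 and 0.16 at 150 nM. A changed sign there is therefore not a reversal relative to all genes. The cause of these changes was not tested.

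The log2 ratio of summed TPM to DMSO was compared with summed CPM and with TPM rescaled without short noncoding RNAs, the latter chosen after seeing the data. In OCI-Ly1 at 500 nM the TPM, CPM and rescaled TPM ratios were -0.09, -0.21 and 0.039 for all genes, -0.06, -0.17 and 0.072 for the large subunit and -0.15, -0.26 and -0.015 for the small subunit, and the large-subunit TPM ratio was -0.0056 without the 3 most abundant genes. In TMD8 they were, in that order, -0.47, -0.31 and -0.16, -0.50, -0.35 and -0.19, and -0.43, -0.25 and -0.12 at 150 nM, and -0.99, -0.57 and -0.38, -1.04, -0.64 and -0.43, and -0.90, -0.48 and -0.29 at 500 nM.

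Same-numbered libraries showed at most a weak pairing: their deviations correlated at -0.07 to 0.26, against -0.29 to 0.16 for differently numbered libraries. Among the 18 same-numbered pairs 4 were over 0.1. All 4 lay between DMSO and 150 nM (0.26, 0.26, 0.18 and 0.14), where the other 2 of 6 pairs were lower. With the number as a replicate block the 150 nM comparison had 1 lower and 0 higher in OCI-Ly1 and 64 and 0 in TMD8, with 41 and 1 for the difference between lines. OCI-Ly1 had 46 lower and 8 higher at 500 nM (43 and 8 without the block), and the difference between lines 58 and 2 (55 and 2). Over all genes tested in OCI-Ly1 at 150 nM the block moved the calls from 117 higher and 22 lower to 159 and 48. Depth limits little here, since the lowest count of any of the genes was 84.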

Other observations

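Some genes of the set start close to a gene on the other strand, and whether they share a promoter was not tested. Of the 67 genes matched in RefSeq, 26 (38.8%) had an oppositely directed start within 1000 bases, against 20.7% of all 27305 genes. Some of the partners are noncoding, such as DNAJC9-AS1 beside MRPS16. MRPL46 and MRPS11 form such a pair within the set. In OCI-Ly1 at 500 nM MRPS11 rose (0.34, SE 0.07, edgeR adjusted p = 0.000299) while MRPL46 had -0.15 (SE 0.07, edgeR adjusted p = 0.0693), with libraries at 36.7, 40.1 and 36.4 CPM under vehicle against 33.5, 33.8 and 34.6 under 500 nM. In TMD8 both fell, by 0.37 and 0.72 on the log2 scale. MRPL46 was chosen after its values were seen.

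The 3 pseudogene copies listed under symbols of their own, MRPL45P2, MRPL42P5 and MRPS31P5, had a median log2 fold change of 0.14 in OCI-Ly1 at 500 nM, with edgeR adjusted p from 0.221 to 0.968, while MRPL45 rose by 0.25.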
